A study of Arabidopsis thaliana with 24 samples.

Results

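The photosystem, antenna and electron transport genes of the Arabidopsis thaliana nucleus were examined in leaves painted with abscisic acid (ABA), a hormone that plants make when water is short. The set was 40 genes chosen by their identity as light-harvesting antenna proteins (LHCA and LHCB), subunits of photosystem I (PSA) and photosystem II (PSB), and 4 genes of electron transport and ATP synthesis. Of these, 35 had an entry among the 22279 genes of the count files and a mean level of at least 1 CPM (counts scaled by the library's total). The 35 were 15 antenna genes, 9 of 10 PSI genes, 8 of 11 PSII genes and 3 of 4 electron transport genes. The genes without an entry were PSAD2, PSBX, PSBY, PSBTN and ATPC1, which were not analysed here. Each has a single exon, and none of 5293 single-exon coding genes had an entry, so their absence says nothing about their level. All 35 passed the filter on low counts and were tested.

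Leaves of 3-week-old plants were sampled 4 h after painting, in 4 genotypes with 3 biological replicates per genotype and treatment, which gave 24 libraries. Delta28, K>R 1-9 and K>R 3 were lines null for the histone variant H2A.Z that expressed an altered copy of HTA11, an H2A.Z gene. Delta28 carried HTA11 without the first 28 residues, K>R 1-9 had all 9 lysines of the N-terminal tail turned to arginine, and in K>R 3 that change was made at the third lysine, residue 13, alone. WT was the wild type, and no null line with an unaltered HTA11 was among the samples, so the tail and the line cannot be told apart. The number of independent lines per construct and the promoter that drove HTA11 are not stated in the sources available. ABA was painted on at 10 uM and the mock solution was DMSO in water. Silwet L-77 at 0.01% served as a wetting agent in each, and plants grew at 20 °C with 16 h of light a day. The comparison of ABA with mock leaves in each genotype gives the ABA response of that genotype. Whether the response in lines with an altered H2A.Z tail differs in size from that in WT is addressed by the difference of responses.

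The light reactions of photosynthesis run in the thylakoid membrane of the chloroplast. LHCB proteins bind chlorophyll and pass light energy to photosystem II, which splits water, and LHCA proteins do so for photosystem I, which reduces ferredoxin. The cytochrome b6f complex links the photosystems, and ferredoxin-NADP reductase makes NADPH at the end of the chain. The core proteins of both photosystems are encoded in the chloroplast, whereas the genes described here are nuclear and their proteins are imported. They are among the most highly transcribed genes of a green leaf.

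Before the levels are read, limits of the libraries must be given. Total counts per library ranged from 1565518 (WT mock replicate 2) to 15086279 (WT ABA replicate 3). In 99.31% of the genes with a single transcript, the deposited length lacked the exon of lowest coordinate, which in minus-strand genes is the 3′-terminal exon that a 3′ end assay reads. Minus-strand genes drew only 12.6% to 17.6% of the counts of a library, so the levels of the 14 minus-strand members rest on few of their reads. They are LHCA1, LHCA4, LHCB2.1, LHCB2.2, LHCB6, PSAE1, PSAF, PSAH1, PSAN, PSAO, PSBO2, PSBQ2, PSBW and FNR1. Of the members called within a single genotype, only LHCB2.3 and LHCB3 are on the plus strand. Levels were compared between samples, not between genes. HTA9, another H2A.Z gene, lay between 53.7 and 109 CPM in the 18 libraries of the mutants and between 301 and 436 CPM in WT. HTA11 was at 393 to 914 CPM in K>R 1-9 libraries. In the library labelled K>R 3 mock replicate 2 it was at 870 CPM, against 5.87 to 38.4 CPM in the other 5 K>R 3 libraries, and the counts and medians that use K>R 3 mock leaves are therefore also given without that library. K>R 3 ABA replicate 3 was the highest of its group in 35 of 35 members. Delta28 ABA replicate 2 was the lowest of its group in 35 of 35. Counts and medians of their groups are given with and without them. Both were picked out by the levels of the members themselves. Leaving out the first was bound to deepen the fall in K>R 3, and leaving out the second to lessen that in Delta28. Values without them show how far a result rests on 1 library and add no support for it. Delta28 mock replicate 2 was also the lowest of its group, in 34 of 35 members, and was kept where ABA replicate 2 was left out. The leaf mesophyll markers RCA, CA1, GLDP1 and SBPASE summed to 309 to 5809 CPM over the 24 libraries, whereas the root markers NRT2.1 and PHO1 summed to 1.03 to 19.4 CPM.

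The upstream sequences of 3 members are printed as examples. LHCB2.3 had the lowest ABA-to-mock ratio of all members, and LHCB3 fell without a G-box or ABRE core upstream. PSBR, with the most counts of any member, holds ABRE cores and passed or missed the test depending on 1 library. These sequences were picked with the responses known and do not stand for the members as a whole. Each is the 250 bases before the RefSeq gene start on TAIR10.1, on the plus strand and from 5′ to 3′, with the motif letters in capitals. The motifs searched on both strands were the G-box CACGTG, the ABRE core ACGTG (contained in every G-box), the I-box core GATAAG and the TATA core TATAAA.
LHCB2.3 lies at chr3:10255656-10255905.
LHCB2.3: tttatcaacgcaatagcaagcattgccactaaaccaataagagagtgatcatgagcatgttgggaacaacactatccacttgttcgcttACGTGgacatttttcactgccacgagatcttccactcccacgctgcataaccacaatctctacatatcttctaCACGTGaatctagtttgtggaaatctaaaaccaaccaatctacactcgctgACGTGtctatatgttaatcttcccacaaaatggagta
LHCB3 lies at chr5:22037915-22038164.
LHCB3: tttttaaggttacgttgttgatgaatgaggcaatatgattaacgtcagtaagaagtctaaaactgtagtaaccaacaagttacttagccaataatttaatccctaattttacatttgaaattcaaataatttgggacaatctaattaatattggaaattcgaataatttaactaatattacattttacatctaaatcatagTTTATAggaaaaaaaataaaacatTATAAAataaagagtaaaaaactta
PSBR lies at chr1:29735702-29735951.
PSBR: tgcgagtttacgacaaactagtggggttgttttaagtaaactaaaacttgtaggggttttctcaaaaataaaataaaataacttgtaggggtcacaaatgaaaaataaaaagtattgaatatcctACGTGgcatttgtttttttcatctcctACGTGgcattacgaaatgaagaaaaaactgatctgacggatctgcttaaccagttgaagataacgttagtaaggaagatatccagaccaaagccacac
In LHCB2.3 the G-box begins 88 bases before the gene start, and further ABRE cores begin 161 and 37 bases before it. In PSBR the ABRE cores begin 125 and 98 bases before the start, and in LHCB3 a TATA core begins 25 bases before it.

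Among the 40 members, 9 windows (22.5%) held a G-box, against 6.49% of the 27443 windows of all protein-coding genes. The ABRE core was in 16 of 40 windows (40.0%), against 22.9% of all windows, and the I-box core in 10 of 40 (25.0%), against 12.3%. The TATA core was in 18 of 40 windows (45.0%), against 47.3% of all windows. Within the 35 tested members, 12 of the 14 with an ABRE core and 15 of the 21 without it were called lower in ABA leaves on average over the genotypes. The median log2 fold changes were -1.01 with the core and -0.99 without it. For the G-box they were -1.14 with it (7 of 8 called) and -0.91 without it (20 of 27). For the I-box core they were -1.28 with it (8 of 10) and -0.91 without it (19 of 25). For the TATA core they were -0.91 with it (13 of 17) and -1.18 without it (14 of 18). These splits were not tested. A match describes letters in a window, not a site of binding.

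Antenna, PSI and PSII genes fell in ABA-painted leaves. On average over the 4 genotypes, 27 of 35 members were lower in ABA than in mock leaves and 0 were higher (edgeR's quasi-likelihood test, Benjamini-Hochberg adjusted p below 0.05 over 13874 genes). In the same comparison 21.4% of all tested genes were called lower and 22.0% higher. The median log2 fold change was -0.99 over the members and -0.03 over all tested genes, and 34 of 35 members lay below 0. The called members were 12 of 15 antenna genes, 8 of 9 PSI genes, 7 of 8 PSII genes and 0 of 3 electron transport genes. Class medians were -1.24 for the antenna, -0.91 for PSI, -0.95 for PSII and -0.36 for electron transport. Without K>R 3 ABA replicate 3, 33 members were called lower, the electron transport genes included (3 of 3), with a median of -1.32, beside 22.3% of all genes tested. That library was picked for its high levels of the members, so a deeper fall without it was built in. Without the library labelled K>R 3 mock replicate 2, 28 were called, FNR2 among them (edgeR adjusted p = 0.0481), beside 21.2% of all genes.

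**Figure D1:**
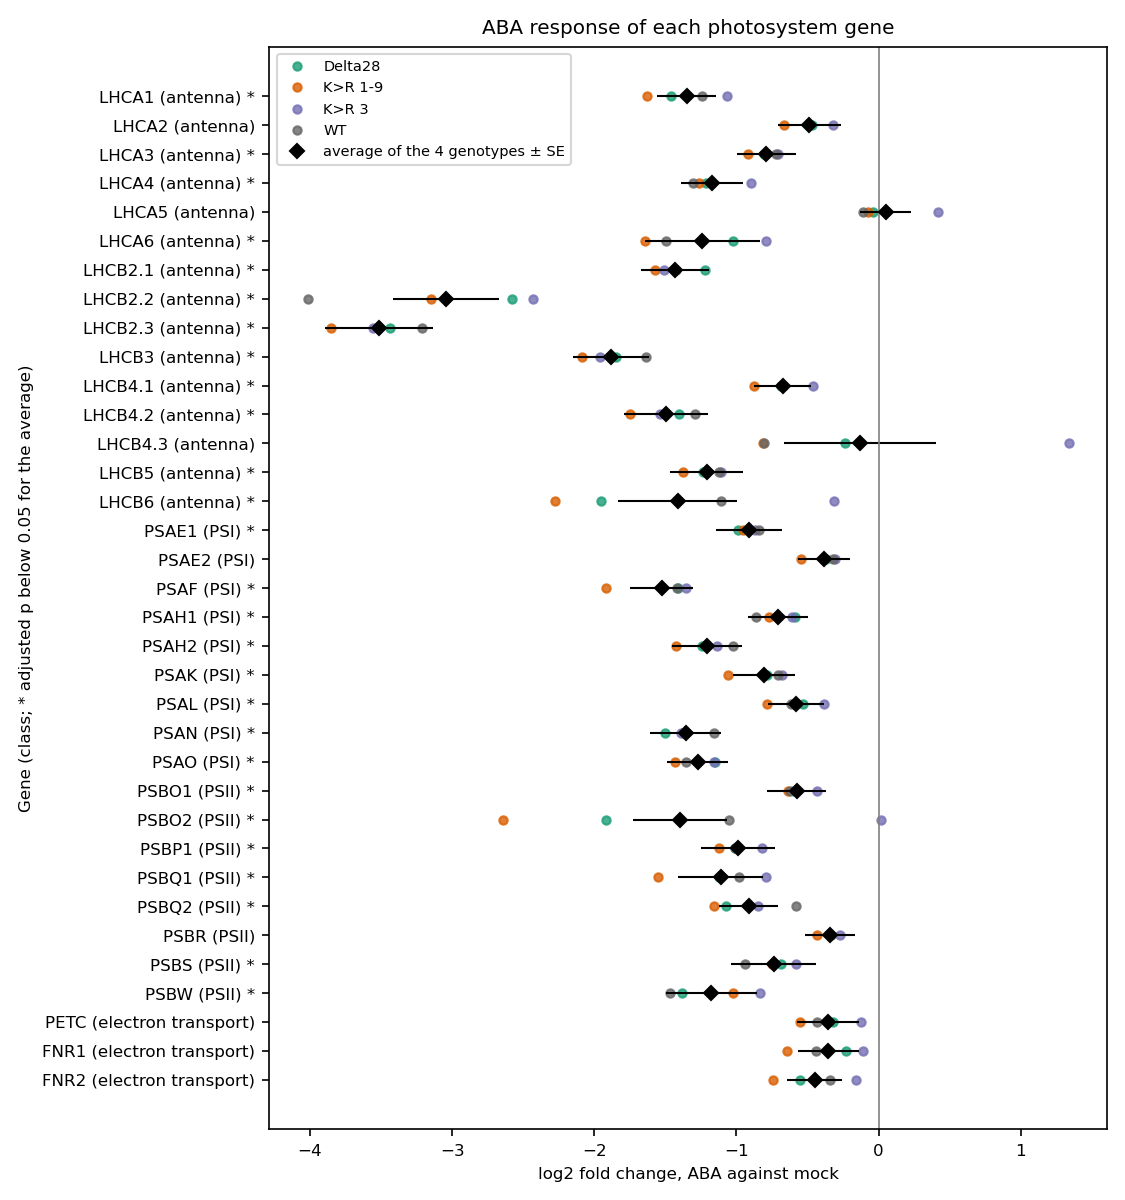
The log2 fold change of ABA against mock leaves for each of the 35 genes (rows, with class) is plotted on the horizontal axis, with coloured points for the 4 genotypes and black diamonds with SE bars for their average. The average lay between -3.52 for LHCB2.3 and 0.05 for LHCA5, and an asterisk marks the 27 genes called on average.

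Within single genotypes fewer members passed the test. In Delta28, 6 of 35 were called lower, where 5.56% of all tested genes were (8.69% were higher). In K>R 1-9 there were 8 called lower, beside 3.58% of all tested genes (5.73% higher), and in K>R 3 there were 4, beside 4.7% (6.08% higher). In WT there were 2, beside 1.63% (4.14% higher). Not a single member was called higher in any of the 4 genotypes. Median log2 fold changes were -1.02 in Delta28, -1.12 in K>R 1-9, -0.79 in K>R 3 and -0.98 in WT. Without K>R 3 ABA replicate 3, 24 members were called in K>R 3 with a median of -1.75, beside 4.17% of all genes. The same fit called 14 in Delta28 (6.81% of all genes), 15 in K>R 1-9 (4.33%) and 8 in WT (2.03%). Without Delta28 ABA replicate 2, 1 member was called in Delta28 with a median of -0.71, a share near the 2.43% of all genes. Without the library labelled K>R 3 mock replicate 2, 1 member was called in K>R 3 with a median of -0.77, a share near the 3.7% of all genes. DESeq2 called 12 in Delta28 (8.38% of all genes), 16 in K>R 1-9 (6.15%), 9 in K>R 3 (8.71%) and 8 in WT (3.69%).

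Read by the libraries themselves, all 3 ABA libraries lay below all 3 mock libraries for 11 of 35 members in Delta28 (18.8% of all tested genes did so), 30 in K>R 1-9 (15.7%), 7 in K>R 3 (17.3%) and 28 in WT (13.6%). The count in K>R 3 was a share near that of all tested genes. In all 4 genotypes at once this held for 6 members, LHCA1, LHCB2.1, LHCB2.2, LHCB2.3, LHCB3 and PSAO, and for 2.96% of all tested genes. Without K>R 3 ABA replicate 3 the count in K>R 3 was 30 (24.3% of all genes). Without the library labelled K>R 3 mock replicate 2 it was 7, a share near the 23.7% of all genes. Without Delta28 ABA replicate 2 the count in Delta28 was 11, a share not far above the 24.5% of all genes.

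**Figure D2:**
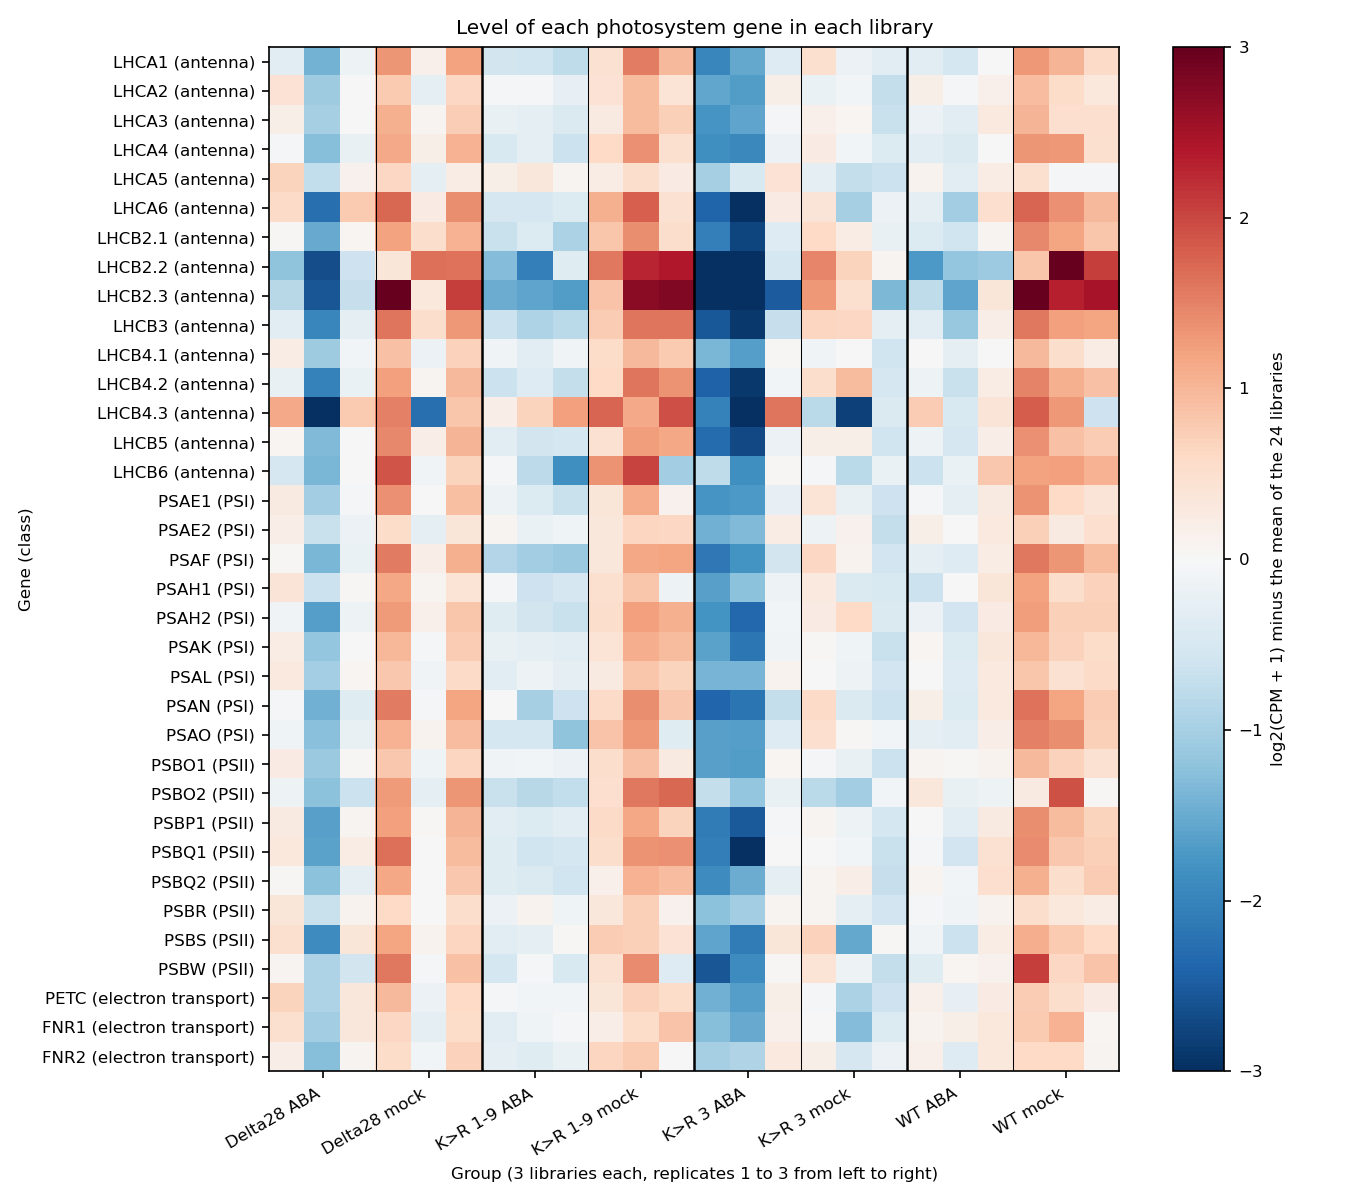
Each row is a gene and each column a library, with colour for log2(CPM + 1) minus the mean of the gene over the 24 libraries, limited to -3 and 3. K>R 3 ABA replicates 1 and 2 and Delta28 ABA replicate 2 lay below the mean in 35 of 35 genes, WT ABA replicate 3 in 4, and K>R 3 mock replicate 3 in 33, whereas Delta28 mock replicates 1 and 3 and WT mock replicate 1 did so in 0.

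The LHCB2 genes (LHCB2.1, AT2G05100; LHCB2.2, AT2G05070; LHCB2.3, AT3G27690), whose proteins form the mobile part of the light-harvesting complex of photosystem II, included the members with the lowest ABA-to-mock ratios, LHCB2.3 and LHCB2.2. In ABA leaves, LHCB2.3 stood at 128, 38.0 and 142 CPM in Delta28, 80.9, 75.1 and 70.5 CPM in K>R 1-9, 17.7, 18.4 and 39.9 CPM in K>R 3 and 134, 75.3 and 291 CPM in WT. In mock leaves, LHCB2.3 stood at 2124, 286 and 970.5 CPM in Delta28, 412, 1492 and 1567 CPM in K>R 1-9, 562, 319.9 and 88.8 CPM in K>R 3 and 2271, 1153 and 1261 CPM in WT. The ABA and mock libraries did not overlap in any genotype. The log2 fold change was -3.44 (SE 0.75, edgeR adjusted p = 0.00451) in Delta28, -3.85 (SE 0.77, edgeR adjusted p = 0.00381) in K>R 1-9, -3.56 (SE 0.76, edgeR adjusted p = 0.00588) in K>R 3 and -3.22 (SE 0.74, edgeR adjusted p = 0.0132) in WT. In the mutants each call held without any single library of the groups compared, and in WT it was lost without WT ABA replicate 1 or 2, with adjusted p up to 0.0896.

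In ABA leaves, LHCB2.2 stood at 36.8, 12.7 and 55.7 CPM in Delta28, 34.5, 20.1 and 67.2 CPM in K>R 1-9, 9.20, 9.20 and 59.1 CPM in K>R 3 and 25.4, 38.1 and 39.7 CPM in WT. In mock leaves, LHCB2.2 stood at 112, 275 and 269 CPM in Delta28, 261, 426 and 460.3 CPM in K>R 1-9, 238, 137 and 91.4 CPM in K>R 3 and 153, 1274 and 365 CPM in WT. WT mock replicate 2, the shallowest library, held far more LHCB2.2 than the other mock libraries of WT. LHCB2.2 fell in all 4 genotypes, with log2 fold changes of -2.58 (SE 0.74) in Delta28, -3.15 (SE 0.75) in K>R 1-9, -2.43 (SE 0.73) in K>R 3 and -4.02 (SE 0.78) in WT. The edgeR adjusted p was 0.0229 in Delta28, 0.0118 in K>R 1-9, 0.0361 in K>R 3 and 0.00417 in WT. The WT call held without any single WT library, with a value of -2.90 without WT mock replicate 2, whereas in the mutants the call was lost without some libraries of the groups compared: Delta28 mock replicates 2 and 3 and ABA replicates 1 and 2, K>R 1-9 ABA replicates 1 and 2, and K>R 3 mock replicates 1 and 2 and ABA replicates 1 and 2. The highest adjusted p was 0.159, in K>R 3.

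In ABA leaves, LHCB2.1 stood at 1140, 394 and 1158 CPM in Delta28, 699.8, 849 and 579.8 CPM in K>R 1-9, 270.3, 165 and 849.8 CPM in K>R 3 and 844, 736 and 1185 CPM in WT. In mock leaves, LHCB2.1 stood at 2602, 1619 and 2310 CPM in Delta28, 1990, 2926 and 1611 CPM in K>R 1-9, 1702, 1314 and 967 CPM in K>R 3 and 3020, 2538 and 2006 CPM in WT. All ABA libraries of a genotype lay below its mock libraries. The call was made in K>R 1-9 (log2 ratio -1.57, SE 0.48, edgeR adjusted p = 0.0433) and K>R 3 (-1.51, SE 0.48, edgeR adjusted p = 0.0459), and each was lost without any of 5 of the 6 libraries compared, all but mock replicate 3 in K>R 1-9 and all but ABA replicate 3 in K>R 3. The coding sequences of LHCB2.1 and LHCB2.2 were identical at 96.62% of aligned positions, so reads could be split between them and their separate values are uncertain. LHCB2.3 was 85.52% identical to LHCB2.1. Of the counts of the 3 genes, LHCB2.1 held 78.2% to 91.0% (median 86.2%) in the 12 ABA libraries and 44.3% to 84.3% (median 62.7%) in the 12 mock libraries. LHCB2.3 held 4.21% to 19.2% (median 9.68%) in ABA libraries and 7.74% to 43.9% (median 25.3%) in mock libraries, and the ranges overlapped.

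In ABA leaves, LHCB3 stood at 4371, 1408 and 4467 CPM in Delta28, 3502, 2888 and 3132 CPM in K>R 1-9, 945, 738 and 3376 CPM in K>R 3 and 4347, 2502 and 6309 CPM in WT. In mock leaves, LHCB3 stood at 16789, 7866 and 13432 CPM in Delta28, 9372, 16703 and 16589 CPM in K>R 1-9, 8636, 8372 and 4459 CPM in K>R 3 and 16360, 12936 and 12443 CPM in WT. LHCB3 (AT5G54270) is a further component of the major antenna of photosystem II. ABA libraries lay below mock libraries in each genotype. It fell in Delta28 (log2 ratio -1.85, SE 0.53, edgeR adjusted p = 0.0237), K>R 1-9 (-2.09, SE 0.53, edgeR adjusted p = 0.0177) and K>R 3 (-1.96, SE 0.53, edgeR adjusted p = 0.0218). In WT the value was -1.64 (SE 0.53, edgeR adjusted p = 0.0694). The call was lost without Delta28 mock replicate 1 or 3 or ABA replicate 2, without K>R 1-9 mock replicate 2 or any K>R 1-9 ABA replicate, and without K>R 3 mock or ABA replicate 1 or 2, with adjusted p up to 0.107. Without K>R 3 ABA replicate 3 the value in K>R 3 was -3.05.

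**Figure D3:**
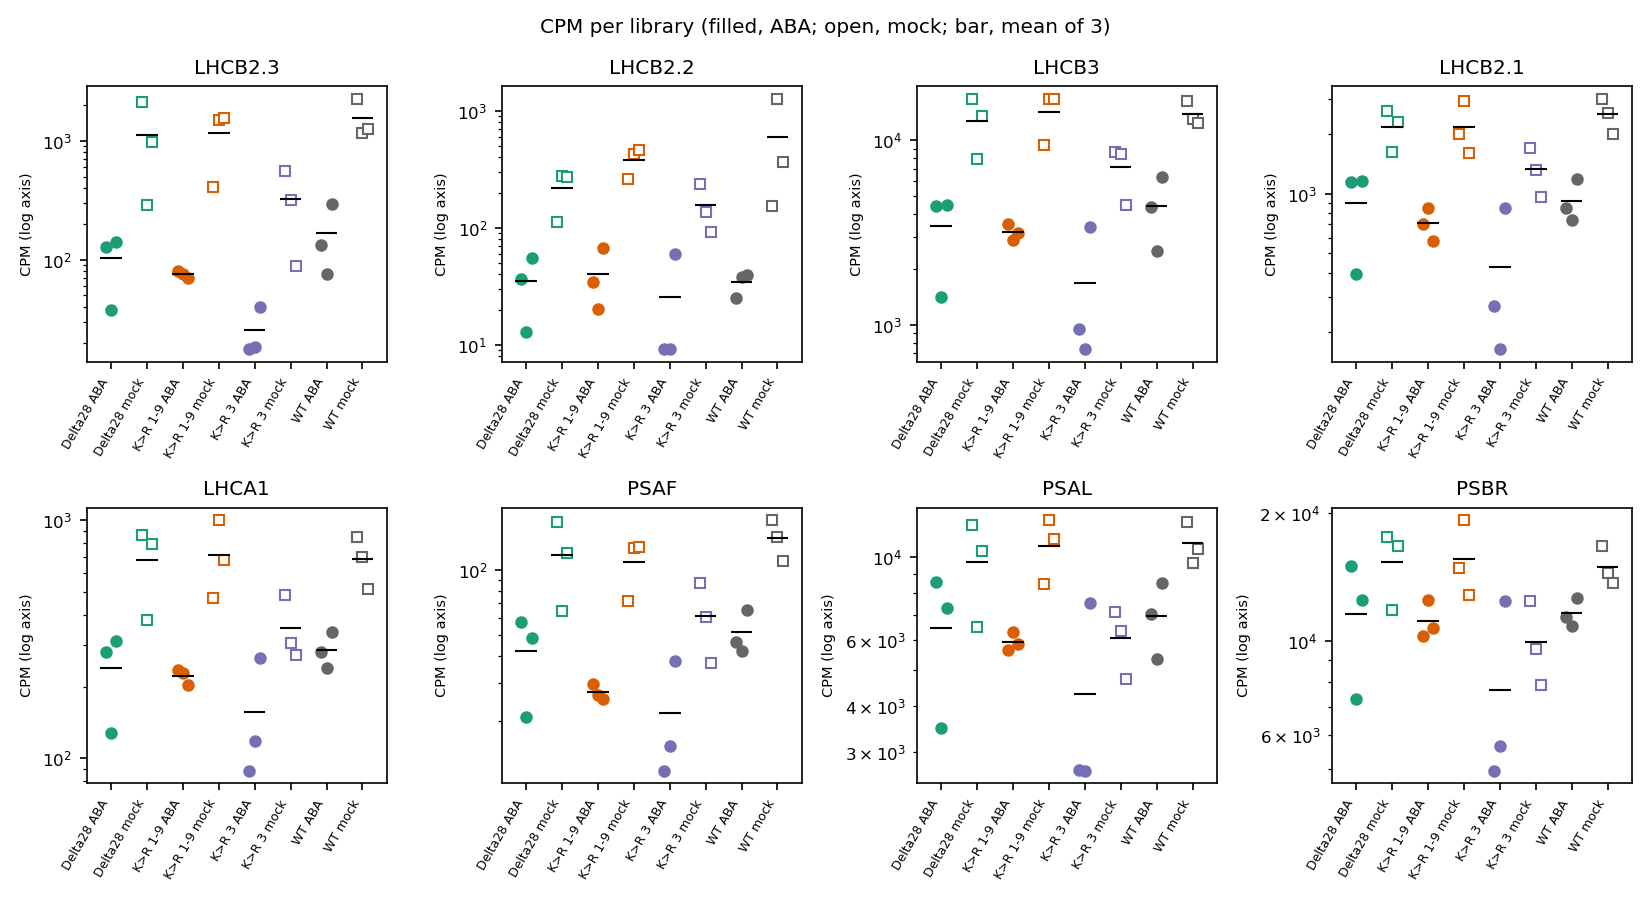
CPM of 8 genes (panels, log axis) is shown in each library of the 8 groups, with filled circles for ABA, open squares for mock and bars for the mean of 3. LHCB2.3, LHCB2.2, LHCB3 and LHCB2.1 had lower ABA than mock values in each genotype, whereas PSBR ranged from 4946 to 15028 CPM in ABA leaves and from 7881 to 19261 CPM in mock leaves.

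Of the minor antenna of photosystem II, which lies between the core and the major antenna, LHCB4.1, LHCB4.2 (AT3G08940), LHCB5 (AT4G10340) and LHCB6 were called on average. In ABA leaves, LHCB4.2 stood at 1594, 455 and 1635 CPM in Delta28, 1199, 1440 and 1138 CPM in K>R 1-9, 347, 249.99 and 1783 CPM in K>R 3 and 1675, 1188 and 2179 CPM in WT. In mock leaves, LHCB4.2 stood at 4411, 1980 and 3680 CPM in Delta28, 2814, 5668 and 4805 CPM in K>R 1-9, 2683, 3592 and 1319 CPM in K>R 3 and 5240, 3896 and 3450 CPM in WT. K>R 3 ABA replicate 3 lay within the range of the K>R 3 mock libraries, and in the other genotypes the groups did not overlap. The average log2 fold change was -1.50 (SE 0.30, edgeR adjusted p = 0.000344). In ABA leaves, LHCB5 stood at 4457, 1710 and 4223 CPM in Delta28, 3460, 2929 and 2972 CPM in K>R 1-9, 866, 659 and 3774 CPM in K>R 3 and 3879, 3044 and 4941 CPM in WT. In mock leaves, LHCB5 stood at 11651, 4896 and 8736 CPM in Delta28, 5859, 10149 and 9536 CPM in K>R 1-9, 4839, 4848 and 2816 CPM in K>R 3 and 11116, 7905 and 7275 CPM in WT. LHCB5 overlapped in K>R 3 alone, and its average was -1.21 (SE 0.26, edgeR adjusted p = 0.000737).

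LHCB4.1 fell on average by 0.68 on the log2 scale (SE 0.20) and LHCB6, at a mean of 5.58 CPM, by 1.41 (SE 0.42). LHCB4.3 was not called (-0.13, SE 0.54, edgeR adjusted p = 0.864). Its value was 1.34 in K>R 3 and -1.81 there without K>R 3 ABA replicate 3, and its level in that library was 409 CPM, against 32.2 and 4.50 CPM in the other K>R 3 ABA libraries.

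The LHCA genes, among them LHCA1 (AT3G54890) and LHCA4 (AT3G47470), encode the antenna of photosystem I. In ABA leaves, LHCA1 stood at 279, 128 and 310.1 CPM in Delta28, 235, 228 and 204 CPM in K>R 1-9, 88.6, 118 and 262 CPM in K>R 3 and 278, 239.7 and 339.7 CPM in WT. In mock leaves, LHCA1 stood at 865, 380.4 and 793 CPM in Delta28, 472, 1004 and 681 CPM in K>R 1-9, 484, 305 and 271 CPM in K>R 3 and 849.6, 701 and 516 CPM in WT. The groups did not overlap in any genotype. LHCA1 fell in Delta28 (log2 ratio -1.46, SE 0.42, edgeR adjusted p = 0.0238) and K>R 1-9 (-1.63, SE 0.42, edgeR adjusted p = 0.0187). These calls were lost without Delta28 mock replicate 1 or 3 or ABA replicate 2, and without K>R 1-9 mock replicate 2 or any K>R 1-9 ABA replicate, with adjusted p up to 0.114. The average of LHCA1 was -1.35 (SE 0.21). In ABA leaves, LHCA4 stood at 632, 269.9 and 557 CPM in Delta28, 475, 542 and 418 CPM in K>R 1-9, 182, 171 and 578 CPM in K>R 3 and 515, 483 and 643 CPM in WT. In mock leaves, LHCA4 stood at 1448, 737 and 1343 CPM in Delta28, 981, 1692 and 907 CPM in K>R 1-9, 774, 614 and 493 CPM in K>R 3 and 1639, 1614 and 907 CPM in WT. LHCA4 overlapped in K>R 3 alone, and its average was -1.17 (SE 0.22, edgeR adjusted p = 0.000176). LHCA3 (-0.79, SE 0.21) and LHCA6 (-1.24, SE 0.40) were also called on average. LHCA2 (-0.49, SE 0.22, edgeR adjusted p = 0.0761) and LHCA5 (0.05, SE 0.18, edgeR adjusted p = 0.846) were not, and LHCA5 was the member with the highest value. Without K>R 3 ABA replicate 3, LHCA2 was called on average (-0.74, edgeR adjusted p = 0.00177).

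Among the subunits of photosystem I, PSAF (AT1G31330), which docks the electron carrier plastocyanin, had the most negative average. In ABA leaves, PSAF stood at 57.3, 21.0 and 48.4 CPM in Delta28, 29.8, 26.4 and 25.4 CPM in K>R 1-9, 11.9, 15.5 and 38.1 CPM in K>R 3 and 46.7, 42.2 and 65.4 CPM in WT. In mock leaves, PSAF stood at 166, 64.5 and 119 CPM in Delta28, 71.7, 125 and 127 CPM in K>R 1-9, 86.6, 60.7 and 37.1 CPM in K>R 3 and 169.6, 141 and 109.7 CPM in WT. The highest ABA library of K>R 3, replicate 3, was above its lowest mock library, and the groups did not overlap elsewhere. PSAF fell in Delta28 (log2 ratio -1.41, SE 0.44, edgeR adjusted p = 0.0352) and K>R 1-9 (-1.92, SE 0.45, edgeR adjusted p = 0.0104), with an average of -1.53 (SE 0.22). The K>R 1-9 call held without any single library compared, and that in Delta28 was lost without Delta28 mock replicates 1 or 3 or ABA replicates 2 or 3, with adjusted p up to 0.190.

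PSAO (AT1G08380) and PSAN (AT5G64040) are small subunits at the periphery of photosystem I. In ABA leaves, PSAO stood at 163, 74.9 and 154 CPM in Delta28, 125, 124 and 77.7 CPM in K>R 1-9, 57.6, 56.4 and 137 CPM in K>R 3 and 147, 141 and 206 CPM in WT. In mock leaves, PSAO stood at 372, 195 and 341 CPM in Delta28, 325, 441 and 139 CPM in K>R 1-9, 255, 183 and 168 CPM in K>R 3 and 516, 473 and 297 CPM in WT. PSAO did not overlap in any genotype and was called in K>R 1-9 (log2 ratio -1.43, SE 0.43, edgeR adjusted p = 0.0402). In ABA leaves, PSAN stood at 356, 134 and 281 CPM in Delta28, 367, 182 and 235 CPM in K>R 1-9, 69.3, 78.7 and 222 CPM in K>R 3 and 411, 272 and 445 CPM in WT. In mock leaves, PSAN stood at 1079, 355 and 831 CPM in Delta28, 544, 950.5 and 641 CPM in K>R 1-9, 545, 270.3 and 233 CPM in K>R 3 and 1126, 828 and 617 CPM in WT. PSAN overlapped in Delta28 alone, where mock replicate 2 lay below the highest ABA library, and was called there (-1.50, SE 0.50, edgeR adjusted p = 0.0488). The PSAO call held only without K>R 1-9 mock replicate 3, and the PSAN call only without Delta28 mock replicate 2, among the 6 libraries compared in each. On average PSAO was at -1.27 (SE 0.21) and PSAN at -1.36 (SE 0.25).

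PSAH2 (AT1G52230) encodes a subunit at which the mobile antenna docks. In ABA leaves, PSAH2 stood at 1558, 536 and 1515 CPM in Delta28, 1302, 1142 and 1051 CPM in K>R 1-9, 484, 327 and 1592 CPM in K>R 3 and 1491, 1115 and 1994 CPM in WT. In mock leaves, PSAH2 stood at 4028, 1848 and 2956 CPM in Delta28, 2417, 3951 and 3493 CPM in K>R 1-9, 1991, 2549 and 1238 CPM in K>R 3 and 3985, 2768 and 2750 CPM in WT. PSAH2 overlapped in K>R 3 alone, and its average was -1.21 (SE 0.25, edgeR adjusted p = 0.000446). PSAE1 (-0.91), PSAH1 (-0.71), PSAK (-0.81) and PSAL (-0.58) were also called on average, and PSAE2 (-0.39, SE 0.18, edgeR adjusted p = 0.0906) was not, but was called without K>R 3 ABA replicate 3 (-0.61, edgeR adjusted p = 0.00114). PSAL, with the most counts of its class, lay between 2683 and 8555 CPM in ABA libraries and between 4723 and 12576 CPM in mock libraries.

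Among the PSII genes, the subunits of the oxygen-evolving complex were PSBO1 (average log2 fold change -0.57, SE 0.21), PSBO2 (-1.40, SE 0.33), PSBP1 (-0.99, SE 0.26), PSBQ1 (-1.11, SE 0.30) and PSBQ2 (-0.92, SE 0.21), which all fell on average. PSBS, the sensor of lumen acidity that switches on heat dissipation, was at -0.74 (SE 0.30, edgeR adjusted p = 0.0483), and PSBW, a small subunit, at -1.18 (SE 0.32). The PSBS call was lost in 15 of 24 fits without 1 library, with adjusted p up to 0.107, and that of PSBO1 without Delta28 or K>R 3 mock replicate 1. PSBO2 was called in K>R 1-9 (-2.65, SE 0.66, edgeR adjusted p = 0.0156) at a mean over the 24 libraries of 4.02 CPM, a call lost without K>R 1-9 mock replicate 2 or ABA replicate 1 or 2. In ABA leaves, PSBR stood at 15028, 7287 and 12461 CPM in Delta28, 10249, 12475 and 10740 CPM in K>R 1-9, 4946, 5650 and 12392 CPM in K>R 3 and 11375, 10833 and 12617 CPM in WT. In mock leaves, PSBR stood at 17570, 11841 and 16690 CPM in Delta28, 14806, 19261 and 12812 CPM in K>R 1-9, 12399, 9555 and 7881 CPM in K>R 3 and 16687, 14429 and 13670 CPM in WT. PSBR (AT1G79040), a subunit near the oxygen-evolving complex, had the most counts of any member. Its average was -0.34 (SE 0.17, edgeR adjusted p = 0.115), which did not pass the test, and without K>R 3 ABA replicate 3 it was -0.51 (edgeR adjusted p = 0.0078) and passed.

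None of the 3 electron transport genes was called in any of the 4 genotypes or on average. In ABA leaves, PETC stood at 4046, 1357 and 3230 CPM in Delta28, 2475, 2421 and 2417 CPM in K>R 1-9, 951, 813 and 2879 CPM in K>R 3 and 2873, 2148 and 3028 CPM in WT. In mock leaves, PETC stood at 5013, 2273 and 3899 CPM in Delta28, 3328, 4138 and 3790 CPM in K>R 1-9, 2466, 1339 and 1667 CPM in K>R 3 and 4383, 3675 and 3022 CPM in WT. PETC (AT4G03280) encodes the Rieske protein of the cytochrome b6f complex, and FNR1 and FNR2 the ferredoxin-NADP reductases. The average log2 fold change was -0.36 (SE 0.22, edgeR adjusted p = 0.193) for PETC, -0.35 (SE 0.21, edgeR adjusted p = 0.188) for FNR1 and -0.45 (SE 0.19, edgeR adjusted p = 0.0659) for FNR2. Without K>R 3 ABA replicate 3 all 3 were called on average, at -0.59 for PETC, -0.57 for FNR1 and -0.62 for FNR2.

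The 35 members together held a large share of the counts. In ABA leaves the share was 8.09%, 3.15% and 7.02% in Delta28, 5.80%, 5.86% and 5.56% in K>R 1-9, 2.23%, 2.11% and 6.84% in K>R 3 and 6.76%, 5.52% and 8.02% in WT. In mock leaves it was 14.39%, 7.16% and 12.002% in Delta28, 9.66%, 14.5% and 11.9% in K>R 1-9, 7.76%, 6.88% and 4.77% in K>R 3 and 14.6%, 11.4% and 10.3% in WT. ABA and mock libraries did not overlap in K>R 1-9 and WT, and overlapped in Delta28 and K>R 3. In bulk leaf RNA, fewer cells of a type and less RNA per cell cannot be told apart.

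The antenna genes held 30.6% to 38.6% of the members' counts in the 12 ABA libraries and 40.0% to 48.2% in the 12 mock libraries, without overlap. LHCB1.1 to LHCB1.5, single-exon LHCB genes outside the members, had no entry, so the antenna class and its shares leave them out. The PSI genes held 21.1% to 23.7% in ABA libraries and 20.6% to 22.5% in mock libraries, and the PSII genes held 31.8% to 40.1% in ABA libraries and 24.8% to 32.4% in mock libraries. The electron transport genes held 6.04% to 7.46% in ABA libraries and 3.38% to 6.17% in mock libraries. LHCB3 alone held 3.51% to 7.86% in ABA libraries and 9.35% to 13.9% in mock libraries, and PSBR held 15.7% to 26.8% in ABA libraries and 10.8% to 16.5% in mock libraries. These are shares of counts, so a lower share of a class raises the others.

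**Figure D4:**
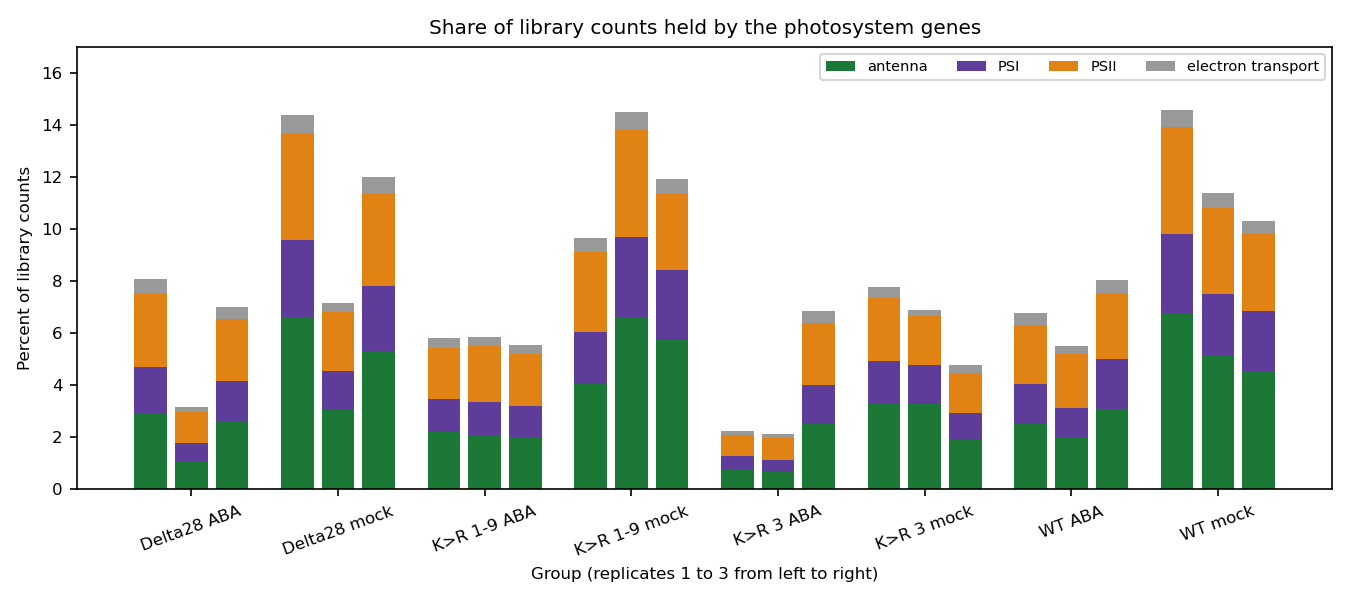
Stacked bars give the percent of library counts held by the antenna, PSI, PSII and electron transport genes in each of the 24 libraries, with replicates 1 to 3 from left to right in each group. The total was 2.11% to 8.09% in ABA libraries and 4.77% to 14.6% in mock libraries.

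No difference in the size of the ABA response between a mutant and WT was detectable. For the difference of responses, 0 of 35 members were called in Delta28, K>R 1-9 or K>R 3 against WT, with 0 at an unadjusted p below 0.05 in each and 0 by DESeq2, and 0.0% of all tested genes were called. The median difference (mutant minus WT, log2) was -0.01 for Delta28, -0.19 for K>R 1-9 and 0.19 for K>R 3. The standard errors of single members ranged from 0.49 to 1.54, which sets how large a difference could have passed the test. The K>R 3 median was -0.79 without K>R 3 ABA replicate 3 and 0.11 without the library labelled K>R 3 mock replicate 2. The highest differences were those of LHCB2.2, 1.44 (SE 0.99) in Delta28 and 1.59 (SE 0.99) in K>R 3, and of LHCB4.3 in K>R 3, 2.15 (SE 1.54). Without WT mock replicate 2 the LHCB2.2 values were 0.31 in Delta28 and 0.44 in K>R 3, and without K>R 3 ABA replicate 3 the LHCB4.3 value was -0.98 and the LHCB2.2 value in K>R 3 -0.01. The lowest was that of PSBO2 in K>R 1-9, -1.59 (SE 0.91), which was -2.41 without WT mock replicate 2.

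In mock leaves, 0 of 35 members were called between any mutant and WT by edgeR's quasi-likelihood test. Of all tested genes, 0.159% were called in Delta28, 0.245% in K>R 1-9 and 0.00721% in K>R 3. DESeq2 also called 0 members, beside 0.634% of all tested genes in Delta28, 2.72% in K>R 1-9 and 0.707% in K>R 3. The medians were -0.04 for Delta28 and 0.09 for K>R 1-9, and 0 members of either had an unadjusted p below 0.05. In K>R 3 the median was -1.03, all 35 values were below 0, and the lowest edgeR adjusted p was 0.273. In 29 members all 3 K>R 3 mock libraries lay below all 3 WT mock libraries, which held for 9.9% of all tested genes. LHCB2.3 was at 562, 319.9 and 88.8 CPM in K>R 3 mock leaves, against 2271, 1153 and 1261 CPM in WT mock leaves, with a log2 fold change of -2.30 (SE 0.72, edgeR adjusted p = 0.273). Without the library labelled K>R 3 mock replicate 2 the median was -1.04, against -0.001 over all tested genes. The lowest edgeR adjusted p was then 0.532, with 35 of 35 values below 0. In that case LHCB2.3 was at -2.28, and 30 members did not overlap, beside 15.02% of all genes. The summed level of the mesophyll markers was 773 to 2339 CPM in K>R 3 mock leaves and 2945 to 5809 CPM in WT mock leaves. The 5809 CPM was that of WT mock replicate 2, the shallowest library, and replicates 1 and 3 were at 3319 and 2945 CPM. The part of these markers in the result was not tested.

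Further lists of thylakoid and chlorophyll genes were counted in the same fit, in which 21.4% of all tested genes were lower and 22.0% higher on average. Of 19 tested chlorophyll synthesis genes, 17 were lower and 0 higher on average, with a median of -1.13. CHLH, the large subunit of magnesium chelatase, fell in all 4 genotypes (-1.94 in Delta28, -2.41 in K>R 1-9, -1.46 in K>R 3 and -2.35 in WT), though 4 of the 6 fits without 1 own library ended the K>R 3 call, and leaving out Delta28 or WT ABA replicate 2 ended the call there. PORC, CHLP and HEME2 fell on average by 1.49, 1.41 and 1.13 on the log2 scale. Of 20 thylakoid regulators and assembly factors, 10 were lower and 2 higher. With 1 library left out, the average call of PGRL1A was lost in 15 of 24 fits and that of STN8 in 6 of 24. GLK1, a transcription factor known to activate photosystem genes, was at -1.55 in Delta28, -1.41 in K>R 1-9, -1.03 in K>R 3 and -0.84 in WT, each called, although the WT call was lost in all 6 fits without 1 WT library (adjusted p up to 0.106). SIG1, a chloroplast sigma factor, fell on average by 1.01. STN7, the kinase that phosphorylates LHCB proteins for state transitions, rose on average (0.55, SE 0.11). Of 6 tested other subunits and carriers, 4 fell and 0 rose on average, among them PSB28, a photosystem II assembly factor, which was called in all 4 genotypes (-1.34 in Delta28, -1.71 in K>R 1-9, -1.55 in K>R 3 and -1.49 in WT). Its call was kept in 1 of 6 fits without 1 own library in Delta28, 2 in K>R 1-9, 3 in K>R 3 and 1 in WT. Of the 6 antenna relatives, 4 fell, with LIL3.1 at -1.27 and ELIP2, an early light-induced protein, at -3.45. The ABA check genes RD29B, RAB18, HAI1, LEA7 and KIN1 rose in all 4 genotypes. The calls of RD29B, LEA7 and KIN1 held without any single library compared, whereas that of HAI1 was lost in 2 of 6 such fits in K>R 1-9, 2 in K>R 3 and 4 in WT, and that of RAB18 without WT ABA replicate 2. Their sum was 2503 CPM in K>R 3 ABA replicate 3 (3305 and 6608 CPM in replicates 1 and 2). In Delta28 ABA replicate 2 it was 12851 CPM (5640 and 6382 CPM in replicates 1 and 3). In K>R 1-9 ABA replicate 2 both the sum (10272 CPM) and the members' share of counts (5.86%) were the highest of the group. A link between the sum and the members' levels was not tested.

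Markers of leaf cell types moved beside these genes. All 4 mesophyll markers fell on average, and their summed level was 309 to 1490 CPM in ABA libraries and 773 to 5809 CPM in mock libraries. Apart from WT mock replicate 2, the shallowest library, the highest mock value was 3960 CPM. Guard cell markers summed to 140 to 393 CPM in ABA libraries and 74.9 to 164 CPM in mock libraries, where KAT1 rose (1.63) and GC1 (-3.34) and FAMA (-0.65) fell. Epidermis markers summed to 136 to 271 CPM in ABA and 118 to 269 CPM in mock libraries, with PDF1 at 0 counts in all libraries and KCS10 higher on average (0.50). Vascular markers summed to 252 to 499 CPM in ABA and 175 to 406 CPM in mock libraries, where AHA3 rose (1.26) and 3 of 4 were not called. With 1 library left out, the KCS10 call held in 5 of 24 fits and that of FAMA in 14 of 24. The part of cell-type markers in the fall of the photosystem genes was not tested.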

How the data were processed

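RNA of 24 leaf samples was profiled by 3′ end sequencing (QuantSeq FWD, 500 ng of RNA per library from about 100 mg of leaf). The tools named in the submitters' processing notes are Trim Galore, STAR and RSEM, with build and annotation not given in the sources used here. What the authors deposited is RSEM's expected count per gene, per the file headers, with no normalisation. The deposited lengths, in bases, were compared with the TAIR10.1 RefSeq annotation, which gave strands and upstream windows. Of 11674 genes with a single transcript, 11593 matched their transcript's length minus the lowest-coordinate exon, and none of 5293 single-exon coding genes had an entry.

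Expected counts were rounded and tested with edgeR 4.0.16 under R 4.3.3 (filterByExpr, 13874 genes; TMM; 1 quasi-likelihood model with 8 group means; 11 comparisons; Benjamini-Hochberg adjustment over all genes tested, called below 0.05). CPM in the text is by library total, and fold changes are on the log2 scale with SE. The script was tested on simulated data. Alternatives were DESeq2 1.42.0, other scalings and filters, a replicate block, plus-strand genes alone and leaving out libraries. Depth (1565518 to 15086279 counts) and 3 replicates per group limit precision. The members, gene lists and tests were chosen with earlier results of these data known. Members called in at least 1 of the 11 comparisons were named, at most 12 of them (smallest adjusted p first) with values per library. In each class the member with the highest mean CPM and those with the largest positive and negative average log2 fold change were named too, and of each other list up to 4 called genes by smallest adjusted p.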

Additional observations from a re-analysis of the deposited data

How the results depend on the processing

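The call counts of single genotypes moved with the processing, whereas the count on average stayed within 1.5 times under the alternatives run on all members. The fit on plus-strand genes alone held only 21 members, so its counts cannot be set beside those over 35. With DESeq2, 12 members were called in Delta28 (8.38% of all genes were lower), 16 in K>R 1-9 (6.15%), 9 in K>R 3 (8.71%) and 8 in WT (3.69%). With only the groups compared in the fit, the counts were 3 in Delta28 (3.74%), 17 in K>R 1-9 (3.5%), 1 in K>R 3 (1.11%) and 12 in WT (3.28%). Among plus-strand genes alone (21 members), they were 2 in Delta28 (8.08%), 2 in K>R 1-9 (5.3%), 2 in K>R 3 (6.42%), 1 in WT (2.17%) and 14 on average (24.1%). In the main fit the plus-strand members called were LHCB2.3 in all 4 genotypes and LHCB3 in Delta28, K>R 1-9 and K>R 3. For plus-strand members the counts of single genotypes were thus unchanged. Library totals gave 4 in WT (1.74%), and without the second mock libraries of WT and of K>R 3, 2 were called in K>R 3 (3.21%). Leaving out 1 library at a time gave 1 to 14 calls in Delta28, 2 to 15 in K>R 1-9, 1 to 24 in K>R 3, 1 to 8 in WT and 25 to 33 on average. The highest counts all came without K>R 3 ABA replicate 3. In that fit 6.81% of all genes were called lower in Delta28, 4.33% in K>R 1-9, 4.17% in K>R 3, 2.03% in WT and 22.3% on average. The medians in those fits ran from -1.38 to -0.68 in Delta28, -1.23 to -0.91 in K>R 1-9, -1.75 to -0.43 in K>R 3, -1.16 to -0.74 in WT and -1.32 to -0.90 on average. The median differences of response ran from -0.33 to 0.29 in Delta28, -0.46 to -0.02 in K>R 1-9 and -0.79 to 0.45 in K>R 3, and the mock medians against WT from -0.36 to 0.22 in Delta28, -0.10 to 0.32 in K>R 1-9 and -1.32 to -0.83 in K>R 3. Differences of response and mock comparisons gave 0 calls under all alternatives run. The replicate block gave 6 calls in Delta28 (5.56% of all genes were lower), 9 in K>R 1-9 (3.57%), 5 in K>R 3 (4.71%), 3 in WT (1.6%) and 28 on average (21.2%). The numbers did not in general pair the samples. Over all tested genes, 84 correlations of deviations between same-numbered libraries ran from -0.238 to 0.274, with a median of -0.008. The highest was that of Delta28 mock and ABA replicates 2. By effective library size the summed level in K>R 1-9 ABA leaves was 62347 CPM, against 57396 CPM by library total, and the plus-strand members held 6.46% of plus-strand counts there, against 5.42% of all counts.

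Signs turned in 7 members, none of them called in that comparison; the cause was not tested. With 1 library left out, LHCA5 ranged from -0.46 to 0.23 in Delta28, -0.16 to 0.036 in K>R 1-9, -0.16 to 0.67 in K>R 3, -0.25 to 0.14 in WT and -0.10 to 0.11 on average. LHCB4.3 ranged from -0.87 to 0.51 in Delta28, -1.81 to 1.89 in K>R 3 and -0.93 to 0.048 on average. FNR1 ranged from -0.55 to 0.099 in Delta28 and -0.92 to 0.22 in K>R 3. In K>R 3, PETC ranged from -1.02 to 0.18, FNR2 from -0.79 to 0.047, LHCB6 from -1.42 to 0.14 and PSBO2 from -0.61 to 0.60. PSBO2 in K>R 3 was -0.010 with RLE scaling, -0.085 by library totals, -0.013 with DESeq2 and -0.24 without the second mock libraries of WT and K>R 3. The average of LHCA5 was -0.014 by library totals and -0.011 without those mock libraries.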
